A study of Mus musculus with 5 samples.

Results

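The genes described here are the DNA replication and S phase genes, a list of 43 genes of origin licensing, the replicative helicase, the replication fork, nucleotide supply and the G1/S switch. Members were found by the gene symbol of the probe in the array's platform annotation, and 42 of the 43 had a named probe (46 probes in all), among 19084 named genes on the array. Pcna had no named probe and is not described. Gins1, Gins3, Rrm1 and Ccne2 had 2 probes each, and the brighter probe stands for the gene. RNA was measured on 5 single-colour mouse arrays, 1 for each sample. The MEF group is 1 array of fibroblasts from embryos of 13.5 days after mock vector transduction. In the iLC group, 2 arrays carry RNA of fibroblasts of the same kind that received Dmrt1, Gata4 and Nr5a1, gonadal transcription factors, by lentivirus, and that the submitters call induced Leydig-like cells. The protocol has virus on the cells for 12 hours, then a medium with 50 ng/ml of IGF and 10 ng/ml of PDGFAA. For the Leydig group, 2 arrays carry RNA of Leydig cells, which make androgen in the testis, taken from mice aged 56 days. The labels leave unstated the medium of the mock-transduced cells, the culture time of iLC, the mouse strain, and whether the samples of a pair are from different cultures or animals. The p-values therefore measure only the spread between these arrays, which may be technical.

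A cell that divides must copy its genome once, in S phase. In G1 the origin recognition complex, with Cdc6 and Cdt1, loads the ring of Mcm2 to Mcm7 onto DNA. In S phase Cdc45 and the GINS complex turn that ring into the moving helicase, primase starts each strand, and the sliding clamp, placed by replication factor C, holds the polymerases. Ribonucleotide reductase, thymidine kinase and thymidylate synthase supply nucleotides. The genes of this machinery are known targets of the E2F transcription factors, which RB proteins hold in check until cyclin D and cyclin E act. Cultured embryonic fibroblasts divide, while adult Leydig cells are known to divide rarely. In RNA from many cells, fewer cells of a type, such as cells in S phase, and less RNA per cell cannot be told apart.

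Depth is not defined for arrays, and their number limits the precision of every value. Array medians lay between 1111 and 1230.0 intensity units. Of 9 Leydig cell markers 6 had a named probe (Insl3, Lhcgr and Hsd3b6 did not). Their summed intensity was 7861 for MEF, 91270.4 and 113619 for iLC, and 329985 and 362023 for Leydig cells. The Leydig arrays differed by marker, with Star at 1368 and 19703, Cyp17a1 at 40614 and 197728, and Hsd3b1 at 218338 and 95740. Cyp17a1 read 2344 for MEF and 1382 and 2351 for iLC. The higher iLC sums came from Star (695 for MEF, 56878 and 73892 for iLC) and Hsd3b1 (829.9, then 27160.1 and 34513), the median difference of the 6 genes between iLC and MEF was 0.22 with 1 called higher, and Cyp11a1 stayed low on both Leydig arrays, at 509.8 and 451. The delivered factors gave no check of the iLC label. Gata4 read 6773 for MEF and 4127 and 3149.6 for iLC. Nr5a1 read 1265 and then 1509 and 1158, and Dmrt1 397 and then 333 and 427. None passed the test between iLC and MEF. Leydig cells gave 71888 and 50891 for Gata4, 68030 and 44721 for Nr5a1, and 549 and 519 for Dmrt1. Whether the probes of these factors lie in the delivered sequence is not given. Every use of iLC here therefore means the arrays labelled so. The 8 fibroblast markers summed to 1234951 for MEF, 658084 and 554430.1 for iLC, and 319346 and 130275 for Leydig cells. Of the Leydig sums, 180686 and 92654 were Pdgfra. Between Leydig cells and MEF 4 of the 8 were called lower, against 3.97% of all genes, and 1, Pdgfra, higher, against 3.34%. Fn1 read 218059 for MEF and 1039 and 673 for Leydig cells. The 12 measured germ cell markers summed to 33447 and 388123 on the Leydig arrays, against 10630.5 to 13095 on the other 3, and for 8 of 12 both Leydig readings exceeded the rest. Leydig replicate 2 stood apart through the sperm protamine genes Prm1 (6235 and 141591 on the Leydig pair) and Prm2 (2711 and 108052). Dazl, a defining germ cell gene, read 3150.1 and 2389 on the Leydig pair and 179 to 329 elsewhere, while Ddx4 read 2668 to 4360.3 over all 5 arrays. The 7 measured macrophage and leukocyte markers summed to 66068 for MEF, 25179 and 50648 for iLC, and 17997 and 21533 for Leydig cells, and 6 of 7 were highest on the MEF array. The part of these other cells in the levels below was not tested.

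The promoters are shown first because many members carry the letters of an E2F site, and the values below can be read against them. RefSeq promoter windows (build GRCm38.p6, from 250 bases before to 50 bases after an annotated start) were matched by symbol for 35 of the 42 measured members, with 40 windows. The 4 spellings TTTCCCGC, TTTCGCGC, TTTGCCGC and TTTGGCGC were searched on both strands, and matches on opposite strands may overlap each other. At least 1 of them stood in 13 of 40 member windows, or 32.5%, against 2.26% of all 32851 windows and 3.06% of the windows of genes on the array. The median GC content was 61.3% in member windows and 58% in those of genes on the array. The windows that hold the letters are unevenly spread over the roles, with 8 of 12 licensing and helicase genes, 3 of 13 clamp, primase and single-strand binding genes (Pcna, without a probe, among the 13), 2 of 4 chromatin genes, 0 of 5 nucleotide supply genes and 0 of 2 G1/S regulators. No match says only that these letters are not in this window. The window of E2f1 reads in part as protein-coding sequence, so its promoter may lie elsewhere. It is counted here among the windows without the letters. CCAAT, on either strand, stood in 57.5% of member windows and 37.4% of those of genes on the array. A match is a description of the letters, not of a bound site.

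Stretches of 40 bases, 5′ to 3′ on the gene's strand, are given for 6 members with the letters before the start, and capitals mark the E2F-type letters.
Mcm5, chr8:75109340-75109379, plus strand: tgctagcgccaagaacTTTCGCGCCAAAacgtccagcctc
Mcm7, chr5:138172025-138172064, minus strand: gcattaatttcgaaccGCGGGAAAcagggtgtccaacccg
Orc1, chr4:108579411-108579450, plus strand: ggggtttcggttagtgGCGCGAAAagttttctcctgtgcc
Cdc6, chr11:98907997-98908036, plus strand: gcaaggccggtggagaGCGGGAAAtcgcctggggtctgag
Gins3, chr8:95633502-95633541, plus strand: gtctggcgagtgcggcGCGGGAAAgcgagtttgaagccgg
Uhrf1, chr17:56304112-56304151, plus strand: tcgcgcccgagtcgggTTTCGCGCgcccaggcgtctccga
In Mcm5 the capitals are 2 overlapping matches on opposite strands.

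The 250 bases before the start are given for Hells and Pola1, the members lower in iLC than in Leydig cells by the test. They are also given for Mcm6, the licensing gene with the largest difference between those groups, which did not pass. Ccne1 is shown as the 1 member higher in iLC by the test. Capitals again mark the E2F-type letters.
Hells, chr19:38930740-38930989, plus strand: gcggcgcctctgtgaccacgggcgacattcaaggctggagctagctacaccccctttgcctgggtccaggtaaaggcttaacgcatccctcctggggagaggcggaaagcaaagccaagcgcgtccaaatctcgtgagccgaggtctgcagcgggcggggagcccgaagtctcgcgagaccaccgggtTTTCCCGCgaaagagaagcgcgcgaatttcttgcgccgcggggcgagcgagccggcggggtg
Pola1, chrX:93632156-93632405, minus strand: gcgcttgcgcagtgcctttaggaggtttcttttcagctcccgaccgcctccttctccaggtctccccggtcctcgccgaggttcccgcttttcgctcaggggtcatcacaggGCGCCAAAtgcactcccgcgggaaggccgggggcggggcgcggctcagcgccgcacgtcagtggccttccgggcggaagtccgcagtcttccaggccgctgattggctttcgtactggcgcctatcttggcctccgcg
Mcm6, chr1:128359706-128359955, minus strand: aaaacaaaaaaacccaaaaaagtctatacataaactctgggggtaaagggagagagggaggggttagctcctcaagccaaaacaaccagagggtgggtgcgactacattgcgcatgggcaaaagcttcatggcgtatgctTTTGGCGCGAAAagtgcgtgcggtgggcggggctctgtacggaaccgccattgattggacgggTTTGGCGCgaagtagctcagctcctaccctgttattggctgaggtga
Ccne1, chr7:38107491-38107740, minus strand: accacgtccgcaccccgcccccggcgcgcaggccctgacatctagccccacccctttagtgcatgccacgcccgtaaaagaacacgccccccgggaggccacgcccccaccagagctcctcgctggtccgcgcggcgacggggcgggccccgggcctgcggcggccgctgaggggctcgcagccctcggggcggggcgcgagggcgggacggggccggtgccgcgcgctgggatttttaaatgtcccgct
Mcm6 holds 3 matches before its start, the first pair overlapping. In Ccne1 none of the 4 spellings stood in the window. These genes were chosen by their differences, so they do not show whether the letters go with a direction. Prim1 (-1.50) and Rfc5 (-1.19) also read lower in iLC than in Leydig cells, without passing, and their windows hold none of the spellings.

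**Figure D1:**
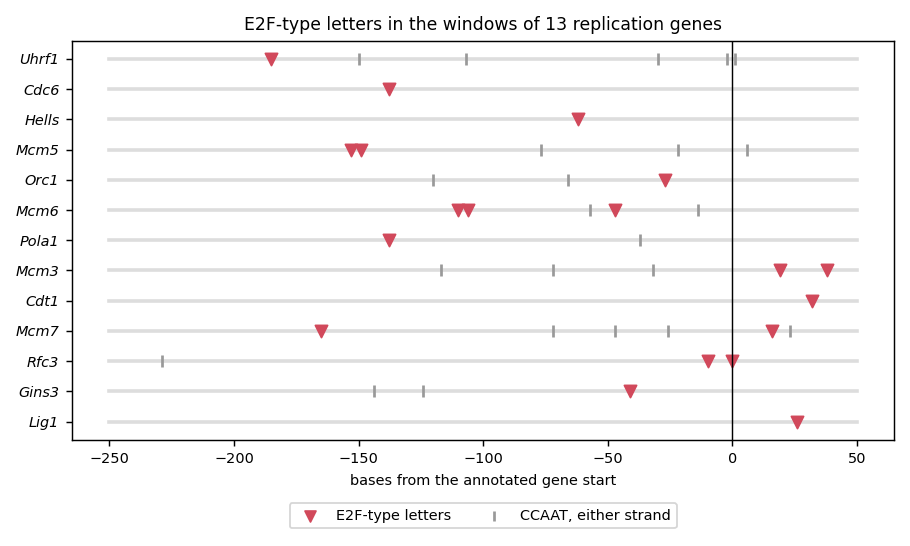
Positions of E2F-type letters (red triangles) and of CCAAT on either strand (grey ticks) in the promoter windows of the 13 members with the E2F-type letters, in bases from the annotated start (vertical line at 0), with genes ordered from the lowest to the highest iLC to MEF difference. Of 19 matches 13 begin before the start, and windows of a gene with several starts are overlaid.

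The first question was how fibroblasts that received the factors differ from mock-transduced ones, and by estimate the replication genes stood lower in iLC nearly throughout. All differences are on the log2 scale of intensity plus 16, which shrinks those of dim genes, and the MEF array, being 1, was assumed as variable as the other groups. The low end of the MEF array lay above those of the other arrays, which can enlarge negative differences of dim genes from MEF. The log2 difference was negative for 41 of 42 members, with Tk1 the exception, and its median was -1.65 (a 3.14-fold lower level), against -0.11 over all 19084 genes. Both iLC arrays read below the MEF array for 39 of 42 members, against 44.4% of all genes, and both read above it for 1, Tk1, against 34.0%. Uhrf1, Prim1, Hells, Mcm5, Orc1, Mcm6 and Pola1 had differences between -4.37 and -3.00, and that of Cdc6, whose iLC readings lie at the floor of the arrays, has no rank. Few differences in the table passed limma's test after Benjamini-Hochberg adjustment (adjusted p under 0.05): 0.283% of all genes were called lower and 0.278% higher (0.561% together), and of the 42 members 1, Hells, was lower and 0 were higher. At an unadjusted p under 0.05, 32 of 42 members were lower, against 10.2% of all genes, and 0 were higher, against 5.55%. The call of Hells was lost with aligned low ends (the 1st percentile of each array subtracted), in a fit of the MEF and iLC arrays alone and when any 1 of the 4 iLC and Leydig arrays was left out. With each array centred on its median, 10 members passed, against 1.1% of all genes. With 64 in place of 16 added before the logarithm, 8 passed, against 0.87%.

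Leydig cells, compared with MEF as the cell type that iLC are named for, also read low for these genes. Both Leydig arrays lay below the MEF array for 39 of 42 members (44.1% of all genes) and above it for 0 (32.9%), the median difference was -1.35 against -0.10 over all genes, and 42 of 42 differences were negative. Of 42 members 9 were lower by the test, against 3.97% of all genes: Ccne1, Rrm2, Orc1, Rrm1, Mcm10, E2f1, Cdc45, Chaf1b and Mcm5. By limma 0 were higher, against 3.34% of all genes (7.30% in either direction). At an unadjusted p under 0.05, 28 members were lower and 0 higher, against 10.7% and 9.14% of all genes. Without Leydig replicate 2, limma called 0 members (19 at an unadjusted p under 0.05) and 74 genes lower in all. Without Leydig replicate 1 or either iLC array, it called fewer members lower than the 9 above, and fewer genes in all. This comparison shares the MEF array with the previous one, so their like direction is not independent.

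**Figure D2:**
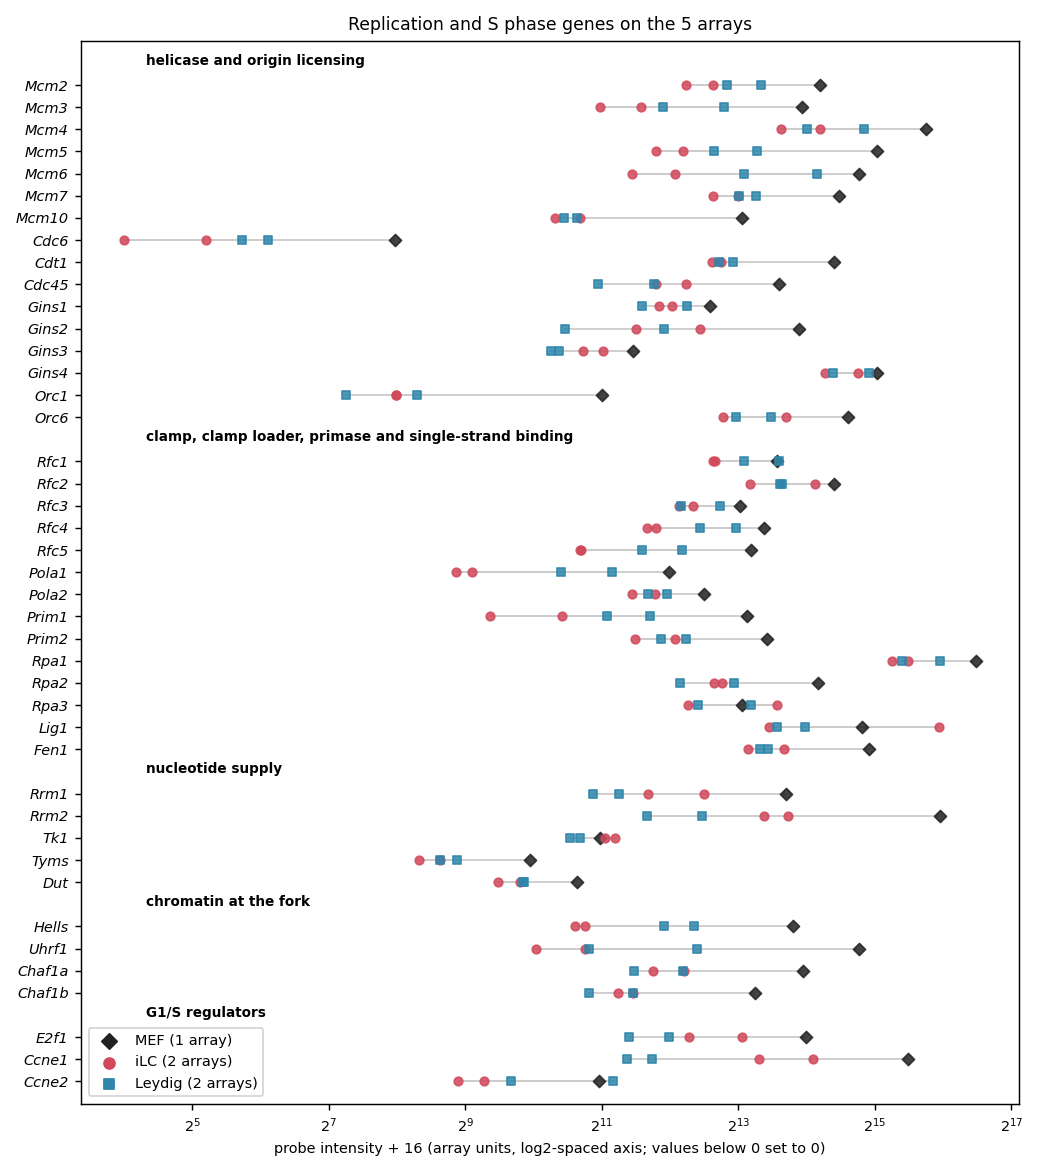
Probe intensity plus 16, on a log2-spaced axis, for the 42 measured replication and S phase genes on the MEF array (diamond), the 2 iLC arrays (circles) and the 2 Leydig arrays (squares), grouped by role; levels compare within a row only. The MEF array is the highest of the 5 for 37 of 42 genes, and the other 5 are Rfc1, Rpa3, Lig1, Tk1 and Ccne2.

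By the order of the 3 groups, the members fell into several sets. The MEF array was the highest of 5 for 37 of 42 members, against 27.0% of all genes. In 14 of 42 the groups did not overlap and Leydig cells lay between MEF and iLC, against 5.65% of all genes: Mcm2, Mcm3, Mcm5, Mcm6, Mcm7, Cdc6, Rfc4, Rfc5, Pola1, Prim1, Tyms, Dut, Hells and Uhrf1. In 6 of 42 iLC lay between MEF and Leydig cells, against 6.59% of all genes: Cdc45, Gins3 (by its brighter probe only), Rrm1, Rrm2, E2f1 and Ccne1. In 17 more the iLC and Leydig arrays overlapped below MEF, against 14.7%. All these sets require MEF to be highest, which alone raises their shares among the members. Of the 37 members with MEF highest, 14, 6 and 17 fell into them in this order. Of the 5149 such genes on the array, 1079, 1257 and 2813 did. By that measure the order with iLC in between was no more frequent among members than among all genes. Each such order rests on 1 or 2 arrays a group, and some gaps are narrow. The iLC and Leydig readings of Cdc6 all lie near the floor of their arrays (percentiles 0.51 to 1.8), so its order carries no weight. The nearest Leydig and iLC readings were 380.01 and 379.40 for Tyms, 8188.8 and 8123.6 for Mcm7, and 904.6 and 874.1 for Dut. Their iLC to Leydig differences of -0.28, -0.32 and -0.21 were smaller than their standard errors.

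The 6 subunits of the helicase ring all read highest on the MEF array. Mcm2 read 18767 with MEF RNA, 4777 and 6294 with iLC RNA, and 10285 and 7279 with Leydig RNA. Mcm3 read 3046 and 1989 in the iLC samples and 7077 and 3798 in the Leydig samples, against 15549.7 in MEF. Mcm4 read 55194 in MEF, 12619 and 18816 across iLC, and 29183 and 16472 across Leydig cells. Leydig cells lay between MEF and iLC for Mcm2 and Mcm3, and overlapped iLC for Mcm4. Mcm5 read 33305 with MEF RNA, 3538 and 4646 with iLC RNA, and 9863 and 6380.3 with Leydig RNA. Mcm6 read 4278 and 2767 in the iLC samples and 18202 and 8652 in the Leydig samples, against 27810.5 in MEF. Mcm7 read 22638 in MEF, 6346 and 8124 across iLC, and 9758 and 8189 across Leydig cells. The iLC to MEF log2 differences of Mcm5 and Mcm6 were -3.03 ± 0.45 (SE, limma adjusted p = 0.058) and -3.01 ± 0.56 (SE, limma adjusted p = 0.0866), the largest of the ring, and those of Mcm3, Mcm4, Mcm2 and Mcm7 were -2.65, -1.84, -1.77 and -1.65. None of the 6 passed, with adjusted p from 0.058 to 0.171. Between Leydig cells and MEF, Mcm5 was lower by the test, with a log2 difference of -2.07 ± 0.45 (SE, limma adjusted p = 0.0461), a call lost with aligned low ends, with the MEF and Leydig arrays alone and when any 1 of the 4 iLC and Leydig arrays was left out. The other 5 differed by -1.58 (Mcm3) to -1.12 (Mcm2) without passing. Mcm6 stood furthest apart between iLC and Leydig cells, at -1.86 ± 0.46 (SE, limma adjusted p = 0.0532), just outside the threshold, and it passed with 64 added, with arrays centred on their medians, with quantile normalization and without the dimmest 20% of genes.

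The loading factors of the ring are the origin recognition subunits Orc1 and Orc6, Cdc6 and Cdt1. Orc1 read 2028 with MEF RNA, 238 and 236 with iLC RNA, and 297 and 137 with Leydig RNA. It was 9.33-fold lower in Leydig cells than in MEF, a log2 difference of -3.22 ± 0.51 (SE, limma adjusted p = 0.0179) and a call lost without Leydig replicate 2, and its iLC to MEF difference was -3.01 ± 0.51 (SE, limma adjusted p = 0.0737). Cdc6 was dim throughout, at 235 with MEF RNA, -5.63 and 20.6 with iLC RNA, and 53.3 and 37 with Leydig RNA. Its differences of -3.37 (iLC to MEF, adjusted p = 0.072) and -2.05 (Leydig cells to MEF, adjusted p = 0.0968) did not pass. Their size depends on the value added: with 64 in place of 16 they were -2.02 and -1.46. The low end of the arrays also differed, with a 1st percentile of 83.8 for MEF against -10.1 and 23.7 for iLC. With low ends aligned, the Leydig to MEF difference of Cdc6 passed, and Cdc6 differed by -3.21 between iLC and MEF. Cdt1 read 21685 in MEF, 6221 and 6852 across iLC, and 7729 and 6709.9 across Leydig cells, so that both groups sat close together below MEF (log2 differences -1.73 and -1.59, adjusted p = 0.109 and 0.0601). Orc6 read 13226 and 7012 in the iLC samples and 11401 and 7990.3 in the Leydig samples, against 25031 in MEF, with differences of -1.38 and -1.39 that did not pass.

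Mcm10, Cdc45 and the GINS subunits turn the loaded ring into the moving helicase. Mcm10 read 8491 with MEF RNA, 1259 and 1627 with iLC RNA, and 1579 and 1385 with Leydig RNA. Its 4 lower readings lay within a narrow band, 5.88-fold and 5.69-fold below MEF in iLC and Leydig cells, as log2 differences of -2.56 ± 0.39 (SE, limma adjusted p = 0.0609) and -2.51 ± 0.39 (SE, limma adjusted p = 0.0171). Mcm10 thus passed in Leydig cells, a call lost without Leydig replicate 1 or Leydig replicate 2, and not in iLC. Cdc45 read 4818 and 3523 in the iLC samples and 3471 and 1961 in the Leydig samples, against 12371 in MEF, and was lower in Leydig cells than in MEF by the test. The log2 difference was -2.24 ± 0.49 (SE, limma adjusted p = 0.0477), a call lost with aligned low ends, with the MEF and Leydig arrays alone and when any 1 of the 4 iLC and Leydig arrays was left out. Gins2 read 15190.0 in MEF, 5533 and 2892 across iLC, and 3842 and 1394 across Leydig cells, with the paired arrays far apart and differences of -1.92 and -2.70 that did not pass. The other GINS genes lay closer to MEF. Gins1 read 6133 with MEF RNA, 3636 and 4145 with iLC RNA, and 4846 and 3055 with Leydig RNA. Gins3 read 1671 and 2055 in the iLC samples and 1211 and 1316 in the Leydig samples, against 2786 in MEF. Gins4 read 33609 in MEF, 27456 and 19649.6 across iLC, and 30971 and 21487 across Leydig cells. MEF was highest for all 3, and the iLC and Leydig arrays did not overlap for Gins3 by its brighter probe. Gins1, Gins3 and Gins4 had iLC to MEF differences of -0.66, -0.58 and -0.53. The second probes of Gins1 and Gins3 gave -1.73 and -1.34, the same direction with a larger size. Between iLC and Leydig cells, though, the second probe of Gins3 overlapped and differed by -0.10, against 0.55 for the brighter one, so Gins3 has no direction there. Over the 16 licensing and helicase genes the median difference between iLC and MEF was -1.81, with 0 called, against 0.561% of all genes. At an unadjusted p under 0.05, 13 were lower there, against 10.2% of all genes. Between Leydig cells and MEF the median was -1.49, with 4 called lower, against 3.97% of all genes.

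Primase and DNA polymerase alpha lay the short primers from which both strands start. Pola1, the catalytic subunit of polymerase alpha, read 4040.2 with MEF RNA, 531 and 451 with iLC RNA, and 2262 and 1342 with Leydig RNA. Prim1, the catalytic primase subunit, read 1349.8 and 639.8 in the iLC samples and 3316 and 2147 in the Leydig samples, against 8951 in MEF. For both genes the 3 groups did not overlap and iLC was lowest. Pola1 was 3.48-fold lower in iLC than in Leydig cells, at a log2 difference of -1.80 ± 0.37 (SE, limma adjusted p = 0.0304), a call lost with aligned low ends and without any 1 of the 4 arrays. Prim1 differed by -1.50 ± 0.46 (SE, limma adjusted p = 0.0933) between those groups. Against MEF, Pola1 and Prim1 differed by -3.00 and -3.24 in iLC (adjusted p = 0.0607 and 0.0742) and by -1.21 and -1.74 in Leydig cells, none passing. Their partner subunits stood closer to MEF. Pola2 read 5782 with MEF RNA, 2773 and 3485 with iLC RNA, and 3938 and 3252 with Leydig RNA. Prim2 read 2858 and 4270.3 in the iLC samples and 4812 and 3725 in the Leydig samples, against 10963 in MEF. MEF was highest for both, with iLC and Leydig arrays overlapping. Pola2 had iLC and Leydig differences from MEF of -0.89 and -0.69, and Prim2 of -1.65 and -1.37, without passing.

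Replication factor C, the loader of the sliding clamp, showed unequal differences among its 5 subunits. Rfc5 read 9341 with MEF RNA, 1626 and 1641 with iLC RNA, and 4583 and 3060.3 with Leydig RNA. Rfc4 read 3527 and 3217 in the iLC samples and 7940.5 and 5544 in the Leydig samples, against 10568 in MEF. Rfc1, the large subunit, read 12087 in MEF, 6469 and 6307 across iLC, and 12344 and 8672 across Leydig cells, so Leydig replicate 1 reached the MEF level. Rfc2 read 21551 with MEF RNA, 9176 and 17734 with iLC RNA, and 12713 and 12452 with Leydig RNA. Rfc3 read 5138 and 4467 in the iLC samples and 6756 and 4574 in the Leydig samples, against 8321 in MEF. The iLC and Leydig arrays overlapped below MEF for Rfc2 and Rfc3. The iLC to MEF differences were -2.50 for Rfc5, -1.65 for Rfc4, -0.92 for Rfc1, -0.79 for Rfc3 and -0.76 for Rfc2, with adjusted p from 0.0697 to 0.523. Rfc5 and Rfc4 also lay lower in iLC than in Leydig cells without overlap, by -1.19 and -0.97 (adjusted p = 0.0789 and 0.125). The single-strand binding protein RPA had differences between iLC and MEF of -1.46 for Rpa2, -1.11 for Rpa1 and -0.13 for Rpa3, none passing. Rpa2 read 18317 in MEF, 6938 and 6372 across iLC, and 7780.5 and 4529.9 across Leydig cells. Rpa1 read 38993 and 45907 in the iLC samples and 63172 and 43229.7 in the Leydig samples, against 91499 in MEF. Both genes were highest in MEF. Rpa3 read 8446 with MEF RNA, 12154 and 4908 with iLC RNA, and 9304 and 5414 with Leydig RNA, so the MEF array lay within the range of the others. Fen1, the flap nuclease that trims Okazaki fragments, read 9015 and 13052 in the iLC samples and 10216 and 11069.9 in the Leydig samples, against 30876 in MEF, with differences of -1.51 and -1.54 that did not pass. Lig1, the ligase that seals those fragments, read 28773 in MEF, 11151 and 63043 across iLC, and 16131 and 12133 across Leydig cells. The iLC arrays lay on either side of MEF, and the log2 difference was 1.13 without iLC replicate 1 and -1.37 without iLC replicate 2, so Lig1 has no direction here. Over these 14 measured genes the median was -1.29 between iLC and MEF and -0.92 between Leydig cells and MEF. In both, 0 were called, against 0.561% and 7.30% of all genes. At an unadjusted p under 0.05, 8 and 6 were lower, against 10.2% and 10.7% of all genes.

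Among the nucleotide supply genes, the probes used for ribonucleotide reductase read lower in Leydig cells than in iLC. Rrm2, the S phase subunit of ribonucleotide reductase, read 63236 with MEF RNA, 13556 and 10652 with iLC RNA, and 3221 and 5639.6 with Leydig RNA. Rrm1, its large subunit, read 5745 and 3270.3 in the iLC samples and 2431 and 1857 in the Leydig samples, against 13299 in MEF. Both genes stood highest in MEF, then iLC, then Leydig cells, with no overlap. Both were lower in Leydig cells than in MEF by the test, with log2 differences of -3.89 ± 0.47 (SE, limma adjusted p = 0.00846) and -2.64 ± 0.48 (SE, limma adjusted p = 0.0267). The call of Rrm2 was lost without Leydig replicate 2, and that of Rrm1 with aligned low ends and without Leydig replicate 1 or Leydig replicate 2. The dimmer probe of Rrm1 gave -1.32 there and 0.22 between iLC and Leydig cells. Between iLC and MEF they differed by -2.39 and -1.61 (adjusted p = 0.0916 and 0.197), and between iLC and Leydig cells by 1.49 and 1.02 (adjusted p = 0.0616 and 0.16). The iLC to Leydig difference of Rrm2 passed with 64 added, with arrays centred on their medians, with quantile normalization and with dim genes left out. Tk1, the S phase thymidine kinase, read 2002 with MEF RNA, 2095 and 2331 with iLC RNA, and 1632 and 1471 with Leydig RNA, the flattest profile of the 5 nucleotide genes, with differences of 0.14 ± 0.37 (SE, limma adjusted p = 0.895) and -0.37 ± 0.37 (SE, limma adjusted p = 0.674). Tyms, thymidylate synthase, read 968 in MEF, 379 and 302 across iLC, and 455 and 380.0 across Leydig cells, with differences from MEF of -1.47 in iLC and -1.19 in Leydig cells. Dut, which keeps uracil out of DNA, read 700.3 and 874 in the iLC samples and 909.9 and 905 in the Leydig samples, against 1582 in MEF. Leydig cells lay between MEF and iLC for Tyms and Dut, though barely apart from iLC, and neither passed in any comparison.

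Chromatin factors of the replication fork held the largest difference between iLC and MEF, that of Uhrf1. Uhrf1, which guides maintenance DNA methylation to new strands, read 27884 with MEF RNA, 1718 and 1037 with iLC RNA, and 5377 and 1787 with Leydig RNA. Hells, a chromatin remodeller also needed for DNA methylation, read 1708 and 1544 in the iLC samples and 5226 and 3838 in the Leydig samples, against 14301 in MEF. In both genes iLC was lowest and the groups did not overlap. Uhrf1 had a difference of -4.37 ± 0.70 (SE, limma adjusted p = 0.0657), a 20.6-fold lower estimate that did not pass, and its Leydig readings, which enter the shared spread, lay far apart. Hells was 8.73-fold lower in iLC than in MEF, a log2 difference of -3.13 ± 0.40 (SE, limma adjusted p = 0.0402). It was also lower in iLC than in Leydig cells, by a log2 difference of -1.45 ± 0.33 (SE, limma adjusted p = 0.0392). Both calls of Hells were lost with aligned low ends and when any 1 of the 4 iLC and Leydig arrays was left out, while its difference from MEF stayed between -3.20 and -3.05 under all alternatives run. Chaf1a and Chaf1b, subunits of the histone chaperone CAF-1, followed another order. Chaf1a read 15835 in MEF, 4687 and 3411 across iLC, and 4652 and 2822 across Leydig cells. Chaf1b read 9719.9 in MEF, 2386 and 2801 across iLC, and 2801 and 1774 across Leydig cells. The iLC and Leydig arrays overlapped for both, with iLC differing from MEF by -1.98 and -1.90, and Leydig cells by -2.12 and -2.12. Chaf1b passed in Leydig cells (adjusted p = 0.0401), a call lost with aligned low ends, with the MEF and Leydig arrays alone and without any 1 of the 4 arrays, and Chaf1a stood at adjusted p = 0.0501.

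Of the G1/S regulators, Ccne1 and E2f1 read higher in iLC than in Leydig cells. Ccne1, cyclin E1, read 46025 with MEF RNA, 10119.9 and 17437 with iLC RNA, and 3375 and 2621 with Leydig RNA. E2f1, the activating E2F factor, read 8503 and 4964 in the iLC samples and 4023 and 2672 in the Leydig samples, against 16292 in MEF. Ccne1 was higher in iLC than in Leydig cells by the test, with a log2 difference of 2.15 ± 0.39 (SE, limma adjusted p = 0.0188), the 1 member called in that direction, against 5.72% of all genes. That call was lost without iLC replicate 2, Leydig replicate 1 or Leydig replicate 2. Against MEF, Ccne1 was 15.4-fold lower with Leydig RNA, at a log2 difference of -3.94 ± 0.47 (SE, limma adjusted p = 0.00792), a call lost without Leydig replicate 2, and its iLC difference was -1.79 (adjusted p = 0.159). E2f1 was lower in Leydig cells than in MEF by the test, with a log2 difference of -2.31 ± 0.50 (SE, limma adjusted p = 0.046), a call lost with aligned low ends, with the MEF and Leydig arrays alone and when any 1 of the 4 iLC and Leydig arrays was left out. It differed by -1.32 in iLC. Ccne2, cyclin E2, has probes that disagree in Leydig cells. The brighter one read 1979.7 with MEF RNA, 603 and 459 with iLC RNA, and 795 and 2278 with Leydig RNA, and the other 2234 for MEF, 437 and 530.4 for iLC, and 191 and 193 for Leydig cells. Both gave lower levels in iLC than in MEF (-1.88 and -2.18), but they differ in sign between iLC and Leydig cells (-1.33 and 1.26), so no direction is given there.

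Between iLC and Leydig cells, the question was how near the induced cells came to their namesake, and here the members differed in both directions. Of 42 differences 24 were negative and 18 positive, a split near that of all 19084 genes (9856 negative and 9228 positive). The median was -0.18, against -0.031 over all genes. The test called 2 lower, Pola1 and Hells, against 5.65% of all genes, and 1, Ccne1, higher, so the shares of members called lay below those of all genes (11.4% in either direction). At an unadjusted p under 0.05, 10 were lower and 3 higher, against 14.7% and 12.2% of all genes. The arrays did not overlap for 16 lower and 7 higher members, against 29.0% and 28.9% of all genes. At the lower end stood Mcm6, Pola1, Prim1, Hells, Ccne2 (by its brighter probe only), Uhrf1, Rfc5 and Mcm3, with differences from -1.86 to -1.07. At the upper end stood Ccne1, Rrm2 and Rrm1, from 2.15 to 1.02, and E2f1 at 0.98. Cdt1, Mcm10, Gins1, Gins4, Orc6, Rfc2 and Fen1 had differences between -0.15 and 0.029, with standard errors of 0.31 to 0.42, each larger than the difference itself. The Leydig arrays themselves differed for these genes. Leydig replicate 1 read above replicate 2 for 38 of 42 members, by a median log2 difference of 0.51, against 54.7% of all genes. The germ cell markers summed higher on replicate 2, the array with the lower replication levels, and their part in this was not tested. Of the iLC arrays, replicate 1 read above replicate 2 for 22 of 42 members, against 37.7% of all genes. Without Leydig replicate 1 the median iLC to Leydig difference was -0.030, and without replicate 2 it was -0.33.

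**Figure D3:**
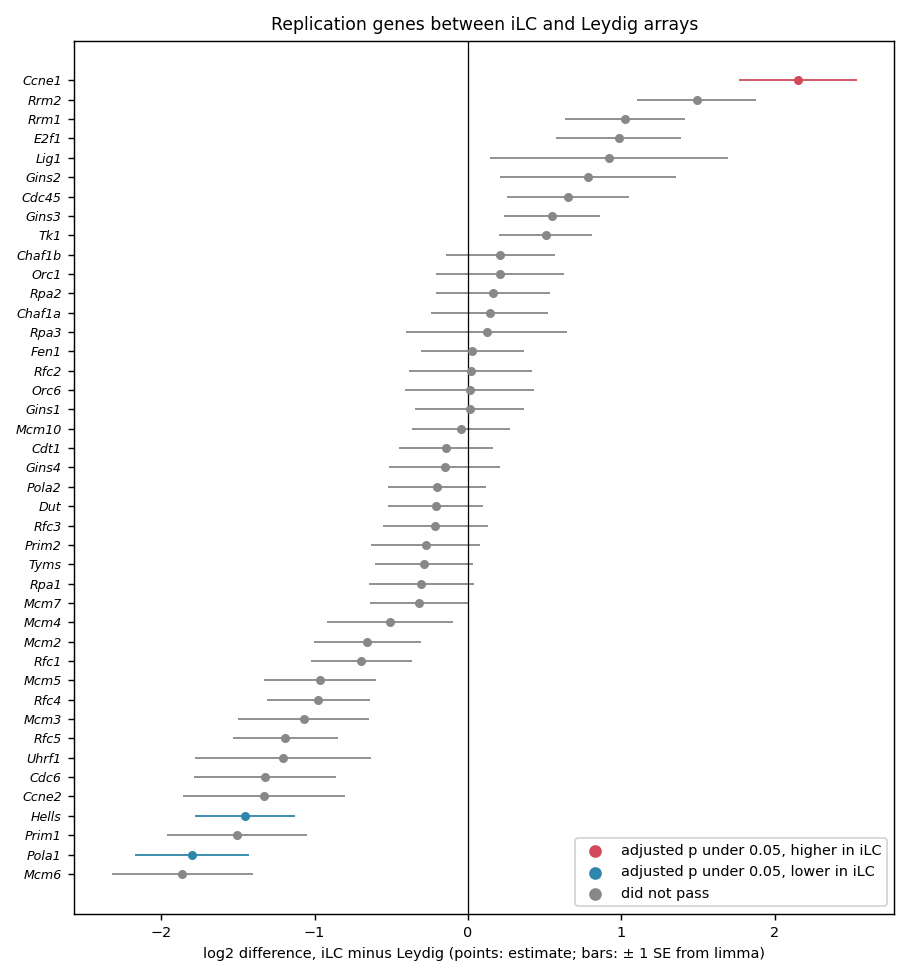
Log2 difference, iLC minus Leydig, of each of the 42 measured members on the log2(intensity + 16) scale, with bars of 1 standard error from limma on either side and colours for the test. Estimates run from -1.86 for Mcm6 to 2.15 for Ccne1, and Pola1, Hells and Ccne1 passed the test.

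Set beside their promoters, the 13 members with the E2F-type letters had a median iLC to MEF difference of -3.00 (range -4.37 to -0.12), and the 22 members whose windows lack them one of -1.54 (range -3.24 to 0.14). Against Leydig cells the medians were -0.97 and 0.021, and between Leydig cells and MEF -1.58 and -1.46. These medians describe genes grouped by letters, with no test, and the ranges overlap throughout. Of the 13 members with the letters, 8 are licensing and helicase genes, and none is a nucleotide supply gene or G1/S regulator. Letters and role therefore cannot be told apart here. Measured members without a matched window are in neither set, and E2f1, with its partly coding window, is among the 22. Members with the letters lie at both ends: Uhrf1 (-4.37), Hells (-3.13) and Mcm5 (-3.03) hold them, as do Mcm7 (-1.65), Rfc3 (-0.79), Gins3 (-0.58) and Lig1 (-0.12), while Prim1 (-3.24) does not. Of these, Lig1 has no direction, and the dimmer probe of Gins3 gave -1.34.

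Other origin and fork genes, outside the 43, also stood below MEF by their medians. Over all genes, 10.2% had an unadjusted p under 0.05 and a negative iLC to MEF difference, and by the adjusted test 3.97% were lower in Leydig cells than in MEF and 5.65% lower in iLC than in Leydig cells. Of 15 other origin and helicase factors 0 were called between iLC and MEF (8 lower at an unadjusted p under 0.05, median -1.39), with Ticrr (-2.65), Wdhd1 (-2.30) and Dbf4 (-2.16) the largest. Between Leydig cells and MEF 5 were lower, among them Ticrr (-3.20), which brings Cdc45 to origins, Dbf4 (-3.02), the activator of the Cdc7 kinase, Gmnn (-2.65), the inhibitor of Cdt1, and Wdhd1 (-1.97). Between iLC and Leydig cells the MCM-binding protein gene Mcmbp (-2.03) and Cdc7 (-1.53) were lower in iLC. Of 21 polymerase and fork genes 0 were called between iLC and MEF (13 lower at an unadjusted p under 0.05, median -1.97), led by the clamp loader gene Chtf18 (-3.02) and the polymerase epsilon genes Pole (-2.60) and Pole2 (-2.35). In Leydig cells 3 were lower than in MEF, Clspn (-3.05), Chtf18 (-2.89) and the histone chaperone gene Asf1b (-2.63). Between iLC and Leydig cells Dscc1 (-2.74), the polymerase delta subunit gene Pold2 (-1.89) and the histone chaperone gene Nasp (-1.46) were lower in iLC. Of 9 other nucleotide genes 0 were called between iLC and MEF (1 lower at an unadjusted p under 0.05, median -0.27), Samhd1 (-2.52), Dctpp1 (1.03) and Cda (0.99) having the largest differences. Samhd1, a phosphohydrolase that breaks down deoxynucleotides, read 33221 with MEF RNA, 6099.6 and 5482 with iLC RNA, and 48498 and 55288 with Leydig RNA, and was lower in iLC than in Leydig cells by a log2 difference of -3.16 ± 0.31 (SE, limma adjusted p = 0.00238). Leydig cells and MEF had 0 calls by limma on this list, also at an unadjusted p under 0.05, and a median of -0.027 against -0.10 over all genes, with Dctpp1 (0.94), Tk2 (0.79) and Samhd1 (0.64) the largest. Without 1 of the 4 iLC and Leydig arrays the calls on the origin list numbered 0 to 3 between Leydig cells and MEF and 0 between iLC and Leydig cells, those on the fork list 0 to 3 and 0 to 1, while Samhd1 kept its call. The E2F-type letters stood in the windows of 4 of 13 origin genes, 7 of 18 fork genes and 0 of 8 other nucleotide genes.

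Genes that control the G1/S switch were called in both directions between iLC and Leydig cells. Of 24 measured E2F, RB and CDK regulators 0 were called between iLC and MEF (8 lower at an unadjusted p under 0.05, against 10.2% of all genes, median -0.36). Ccna2, the S phase cyclin, had a difference of -4.52 (adjusted p = 0.0622), and the repressor E2F genes E2f7 and E2f8 of -2.99 and -2.74. Between iLC and Leydig cells 5 were higher and 1 lower, against 5.72% and 5.65% of all genes. Cdkn2b, the cyclin D kinase inhibitor p15, read 25188 with MEF RNA, 46882 and 43047 with iLC RNA, and 2437 and 1582 with Leydig RNA, and Ccnd1, cyclin D1, read 76446 and 119167 in the iLC samples and 4801 and 5028 in the Leydig samples, against 68749 in MEF. They were higher in iLC than in Leydig cells, with log2 differences of 4.50 ± 0.35 (SE, limma adjusted p = 0.00152) and 4.28 ± 0.35 (SE, limma adjusted p = 0.00177), while between iLC and MEF they differed by 0.83 and 0.47 without passing. Cdkn1c, the inhibitor p57, was higher by 2.09, and Cdkn2c, the inhibitor p18, was the lower gene (-2.28). Between Leydig cells and MEF 6 were lower, against 3.97% of all genes, led by Ccna2 (-5.08), Ccnd1 (-3.80), Cdkn2b (-3.67) and E2f7 (-3.35). Without 1 of the 4 arrays these counts were 2 to 4 higher and 0 to 1 lower between iLC and Leydig cells and 0 to 6 lower between Leydig cells and MEF.

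Genes of mitosis, measured on the same arrays, had lower medians against MEF than the replication genes. Their 24 measured members had a median iLC to MEF difference of -3.32, against -1.65 for the replication genes, and 11 of 24 were called lower, against 0.283% of all genes, led by Kif23 (-4.46), Bub1 (-4.31), Ndc80 (-4.09) and Foxm1 (-3.83). Between Leydig cells and MEF the median was -3.64, against -1.35, and 19 of 24 were called lower, against 3.97% of all genes, with Ndc80 (-4.59), Aurka (-4.50), Foxm1 (-4.35) and Top2a (-4.26) the largest. Between iLC and Leydig cells 0 were called, against 11.4% of all genes. At an unadjusted p under 0.05, 3 were higher and 0 lower there, against 12.2% and 14.7% of all genes. The median was 0.34, with Cdca8 (1.37), Ccnb2 (1.19) and Aurka (0.87) the largest. The difference between the lists was not tested. Between iLC and MEF, 17 mitosis genes were called lower with 64 added, median centring or quantile normalization, against 0.87% to 1.1% of all genes. With aligned low ends, or with only the MEF and iLC arrays, 0 were called lower, against 0% of all genes. Without 1 of the 4 iLC and Leydig arrays, 0 mitosis genes were called between iLC and MEF, and 1 to 18 between Leydig cells and MEF. The promoter letters differed as well. The spelling TTTGAA, which is the cell cycle homology region of many mitosis genes, stood on either strand in 15 of 22 mitosis windows and 4 of 40 replication windows, against 14.1% of the windows of genes on the array. The E2F-type spellings stood in 1 of 22 mitosis windows.

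**Figure D4:**
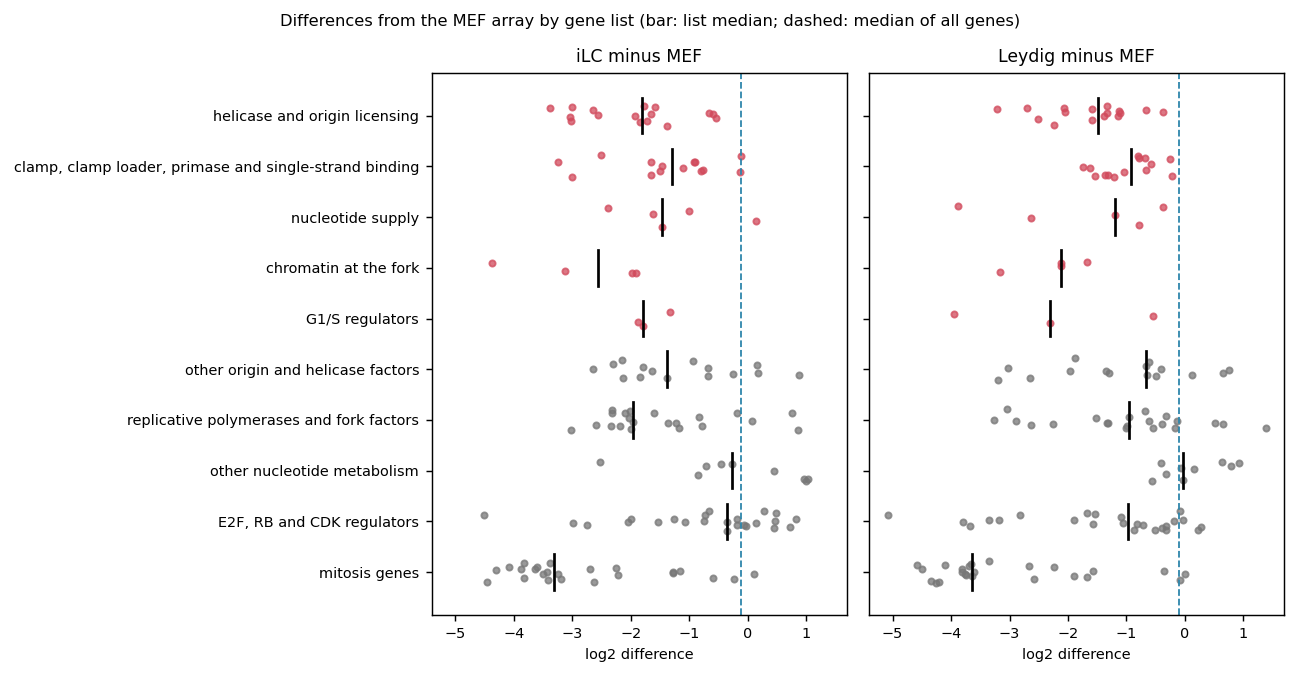
Log2 differences of single genes (points) from the MEF array in iLC (left) and Leydig cells (right), by list, with black bars for list medians and a dashed line for the median of all 19084 genes (-0.11 and -0.10). Red points are the replication and S phase members by role, grey points other lists, and the medians of the mitosis genes lie at -3.32 and -3.64.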

How the data were processed

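Transcript levels were measured on 5 arrays, and each sample was grouped by its title and cell type label. The authors deposited linear probe intensities. RNA was labelled with Cy5, per the labels' protocols, and how the scans were corrected for background or normalized is not stated in the labels or the table. No detection calls were used, so dim readings carry no bound. Columns of no sample numbered 0.

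Of 26423 probes, 21876 had 1 gene symbol in the platform annotation, 0 several and 4547 none, and the probe with the highest mean log2 value stood for each of 19084 genes. Values below 0 were set to 0, 16 was added and log2 taken, and the added value shrinks differences of dim genes. Negative differences of dim genes from MEF can also be enlarged, because the low end of the MEF array lay above those of the other arrays. limma 3.58.1 in R 4.3.3 (lmFit, eBayes) took all 5 arrays, with a mean for each group, two-sided, with Benjamini-Hochberg adjustment over all genes and a threshold of 0.05. The fit had 2 residual and 4.21 prior degrees of freedom, and MEF, with 1 array, was taken to have the spread of the iLC and Leydig pairs. The root mean square SD between paired arrays over the members was 0.48 for iLC and 0.48 for Leydig cells. The procedure was tested on simulated data. Alternatives changed the value added, the scaling, the low ends (each array's 1st percentile subtracted), the filter on dim genes, the probe rule, the arrays in the fit and the pairing.

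The members and all lists were chosen with earlier results of these data known. Named were all measured members and, of each other list, up to 4 called genes with the largest differences in a comparison, or up to 3 where none was called, and other genes were chosen after their values were seen. Whole lists are described by counts and medians, with no test of a list.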

Additional observations from a re-analysis of the deposited data

How the results depend on the processing

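The median member difference kept its sign under every alternative run, between -1.72 and -1.64 for iLC to MEF, -1.63 and -1.19 for Leydig cells to MEF, and -0.33 and -0.030 for iLC to Leydig cells. Over all genes the iLC to MEF median was -0.11, 0.049 after quantile normalization and 0.12 with aligned low ends. Counts of calls moved more. Members lower in iLC than in MEF numbered 1, and 8 with 64 added, 10 with median centring, 10 with quantile normalization, 6 with dim genes left out, 0 with aligned low ends, 0 with only the arrays of these groups and 0 to 0 without 1 array, where fewer residual degrees of freedom remain and limma called 0 genes lower in all (25 to 30 members lower at an unadjusted p under 0.05). The background of calls lower moved from 0.283% to 0.87% with 64 added, 1.1% with median centring, 1.08% with quantile normalization and 0.773% with dim genes left out. Members higher in iLC than in Leydig cells numbered 1, against 5.72% of all genes. They numbered 2, against 6.37% to 7.81%, with 64 added, median centring, quantile normalization, dim genes left out or the replicate block. Without 1 array they numbered the same or fewer. Members lower there numbered 2, against 5.65% of all genes, then 0 with aligned low ends (4.1%) and 6 with the replicate block (10.3%). Without 1 array fewer were called lower. Same-numbered iLC and Leydig arrays had deviations correlated at 0.056 across genes, so their numbers were not taken to pair them. With the replicate block limma called 1482 genes higher and 1958 lower in all, against 1091 and 1079. Members lower in Leydig cells than in MEF numbered 9, then 14 with quantile normalization, 5 with aligned low ends, 5 with only the arrays of these groups and 0 to 5 without 1 array. The cause of these moves was not tested. Signs of small, uncalled differences between iLC and Leydig cells turned for Gins1 (-0.00080) and Orc6 (-0.00070) with median centring and for Gins1 (-0.19) with the mean of its probes. Without 1 array they ranged across 0 for Mcm10 (-0.23 to 0.14), Orc6 (-0.44 to 0.47), Prim2 (-0.56 to 0.012), Rpa3 (-0.53 to 0.77), Chaf1a (-0.22 to 0.50), Gins1 (-0.32 to 0.34), Gins4 (-0.41 to 0.11), Rfc2 (-0.45 to 0.49), Lig1 (-0.33 to 2.17), Fen1 (-0.24 to 0.30), Rfc3 (-0.49 to 0.067), Orc1 (-0.31 to 0.72), Rpa2 (-0.23 to 0.55) and Chaf1b (-0.12 to 0.54), between iLC and MEF for Lig1 (-1.37 to 1.13) and Rpa3 (-0.78 to 0.52), and between Leydig cells and MEF for Ccne2 (-1.30 to 0.20), Rfc1 (-0.48 to 0.030) and Rpa3 (-0.64 to 0.14).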
